A study of Mus musculus with 6 samples.

Results

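Hearts of mice given ginsenoside Rh2 alone (labelled Rh2-30 mg/kg, here Rh2-30) were compared with hearts of the Control mice, as the ratio of 1 RNA library to another. These are 2 of the 6 libraries of the series. The labels give BALB/c nude mice (CAnN.Cg-Foxn1nu/Crl) for all groups, a strain whose Foxn1 mutation leaves it without a working thymus and so short of T cells. The methods of the study speak of female mice and once of wild-type BALB/c. The mice were 6 weeks old per the labels, and all carried a subcutaneous xenograft of the human breast cancer line MDA-MB-231. The study's text has treatment start at age 7 weeks, so the hearts came from mice older than 6 weeks. Treatment began on day 7 after the graft and lasted 3 weeks, with Rh2 dissolved in PBS + Tween 80 and injected every day. The study gives saline as the treatment of its Control mice. The other libraries, used here only to place these, came from Rh2-20 mg/kg (Rh2-20), from doxorubicin (Dox), injected every other day at 2 mg/kg to 22 mg/kg in all, and from both Rh2 doses given with Dox. Each library was made from the hearts of 5 mice pooled before RNA was extracted, so there was 1 value per condition and no spread between mice, and the differences are given as a description without a test. Of the 45777 genes in the count table, 18328 reached 10 counts on average across the 6 libraries and were kept.

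Ginsenoside Rh2 is a steroid-like saponin of ginseng that was tested in the study as a protector of the heart against Dox, and the Rh2-30 library shows the heart under the higher Rh2 dose without Dox. A mouse heart removed whole holds ventricles and atria, whose muscle cells share most of the contractile apparatus but use different myosin light chains and secrete different hormones. Fat lies on the heart and around the great vessels at its base. White fat stores triglyceride and secretes adiponectin, whereas brown fat burns fuel for heat through the uncoupling protein Ucp1.

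The ratio of Rh2-30 to Control was taken on TMM-normalized counts, and a gene was counted as higher or lower when the difference was at least 2-fold (log2 ratio of at least 1 or at most -1). By that measure 1555 genes (8.48%) were higher and 299 (1.63%) were lower in Rh2-30. Genes of atrial muscle and of fat lay far above this background. Their lists were chosen with earlier results of these data known, so the excess may follow in part from that choice. At least 2-fold higher were 18 of 23 genes of the atrial myocyte list, 17 of 24 genes of fat of both kinds, 6 of the 9 white fat genes and 8 of the 15 brown fat genes that passed the filter on low counts. None of the 11 ventricular myocyte genes that passed was higher, and 1 was lower. The median log2 ratio was 2.01 for the atrial list, 3.09 for fat of both kinds, 1.98 for white fat, 1.41 for brown fat and -0.49 for the ventricular list, beside 0.03 for all genes tested. The filter took the mean over the 6 libraries, so Ucp1, Elovl3, Otop1 and Kng2 passed through their Rh2-30 counts alone, as did Snap25 and Krt5 of other lists. Lep, Hoxc8, Hoxc9 and Hoxc10 dropped out. The shares and medians of the lists follow in part from this filter, which also applied to all genes tested. The study speaks of isolated hearts and does not say which parts of them went into the RNA. In pooled hearts a difference in the tissue taken, in the number of cells of a type and in RNA per cell cannot be told apart.

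The libraries were close in depth, at 86164411 to 90621002 counts, and titin (Ttn) had the most counts in both, 7526570 in Control and 6290140 in Rh2-30. The Rh2-30 library stood at an end of the 6 in several ways. It had counts in 23044 genes, against 21533 to 22126 in the others, and its 10 most abundant genes took 14.4% of its counts, against 15.8 to 17.7%. Genes encoded in mitochondrial DNA took 3.53% of its counts, against 5.34% in Control and 4.19 to 5.11% in the other 4. Its TMM factor was the highest (1.081). Scaling by the total count alone moved the median of all genes to 0.20, and scaling to the summed sarcomere genes moved it to 0.44. The share of higher genes among all those at least 2-fold different was then 89.9% and 95.4%, beside 83.9% with TMM.

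Short stretches before the start of genes on which the results turn are printed here from RefSeq (GRCm38.p6), because they are defining genes of the chamber and fat lists described here. Of 22 defining genes of the chamber and fat lists, 19 had such a window in the table used. Each run is the 250 bases before the annotated start, written 5′ to 3′ on the gene's own strand, and capitals mark matches on either strand to the T-box motif AGGTGT, the GATA motif AGATAA, the TATA motif TATAAA, the nuclear receptor motif AGGTCA or the C/EBP-like motif TTGCNNAA.
Nppa, chr4:148000472-148000721, plus strand: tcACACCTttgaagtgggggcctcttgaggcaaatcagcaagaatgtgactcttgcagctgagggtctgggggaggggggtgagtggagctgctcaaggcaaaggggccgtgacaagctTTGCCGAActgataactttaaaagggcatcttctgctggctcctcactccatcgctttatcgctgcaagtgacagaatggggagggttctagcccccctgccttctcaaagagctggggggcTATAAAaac
Bmp10, chr6:87428744-87428993, plus strand: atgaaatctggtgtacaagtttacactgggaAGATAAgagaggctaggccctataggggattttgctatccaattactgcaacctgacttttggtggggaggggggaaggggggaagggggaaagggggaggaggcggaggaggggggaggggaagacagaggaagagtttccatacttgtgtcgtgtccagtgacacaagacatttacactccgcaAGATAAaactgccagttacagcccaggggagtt
Myl2, chr5:122092939-122093188, plus strand: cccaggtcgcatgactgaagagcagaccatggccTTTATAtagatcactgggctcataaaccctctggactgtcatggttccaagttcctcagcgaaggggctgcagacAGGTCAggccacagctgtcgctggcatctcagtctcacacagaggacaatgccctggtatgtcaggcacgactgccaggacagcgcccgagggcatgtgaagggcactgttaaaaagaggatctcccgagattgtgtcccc
Plin1, chr7:79732777-79733026, minus strand: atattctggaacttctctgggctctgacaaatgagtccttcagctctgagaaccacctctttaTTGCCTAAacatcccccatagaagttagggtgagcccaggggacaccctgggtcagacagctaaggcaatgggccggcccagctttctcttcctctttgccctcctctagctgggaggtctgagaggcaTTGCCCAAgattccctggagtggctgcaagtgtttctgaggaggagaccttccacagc
Ucp1, chr8:83290098-83290347, plus strand: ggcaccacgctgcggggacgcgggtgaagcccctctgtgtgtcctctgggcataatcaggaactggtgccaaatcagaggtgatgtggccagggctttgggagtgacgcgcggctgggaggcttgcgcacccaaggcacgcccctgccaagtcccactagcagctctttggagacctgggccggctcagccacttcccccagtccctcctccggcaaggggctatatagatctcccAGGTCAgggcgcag
Nppa, the atrial natriuretic peptide, held a T-box match 248 bases before its start, a C/EBP-like match at 131 and a TATA match at 9. Bmp10, a growth factor of the right atrium, held GATA matches at 219 and 33 bases. The ventricular light chain gene Myl2 is shown at the second of its 2 annotated starts and held a nuclear receptor match at 141 bases and a TATA match at 216. Plin1, the coat protein of fat droplets, held C/EBP-like matches at 187 and 58 bases, and Ucp1 held a nuclear receptor match at 14 bases. Among 32817 windows of other genes and these, 11.8% held the T-box motif, 9.99% the GATA motif, 12.4% the TATA motif, 14% the nuclear receptor motif and 9.57% the C/EBP-like motif. None of these motifs was found in the windows of Myl7, Myl4, Myl3, Irx4, Hey2, Adipoq, Cfd, Slc7a10 or Otop1. A match is a description of letters and not a bound site.

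Where 6 counts are given they stand for Control, then Rh2-20 and Rh2-30 without Dox, then Rh2-20 + Dox, Rh2-30 + Dox and Dox alone. Myl7, the regulatory light chain of atrial myosin, had 56, 1187, 52896, 10613, 19 and 9134 counts. Sarcolipin (Sln), the small inhibitor of the calcium pump in atrial muscle, had 14, 326, 15768, 4393, 0 and 1828. Myl4, the essential light chain of atrial myosin, had 128, 819, 32604, 5289, 106 and 4639. All of these were highest in Rh2-30, lowest in Control and Rh2-30 + Dox, and in between in the remaining libraries. The ratio of Rh2-30 to Control was 823-fold for Myl7 (log2 ratio 9.68, 95% counting interval 9.32 to 10.10), 957-fold for Sln (9.20 to 10.82) and 223-fold for Myl4 (7.56 to 8.07). Counting intervals cover the sampling of reads only. A wider interval that adds 1 dispersion common to the 6 libraries spans 0.67 to either side at high counts, and for Myl7 it ran from 8.91 to 10.46.

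Nppa differed less and was already present in Control. It had 3607, 3252, 56331, 16608, 6416 and 16217 counts, 13.7-fold higher in Rh2-30 than in Control (log2 ratio 3.78, 3.73 to 3.83). Mybphl, a myosin-binding protein of atrium and conduction system, had 14, 125, 8991, 984, 21 and 994 counts, and its log2 ratio was 9.09. Pam, the enzyme that amidates peptides and an abundant membrane protein of atrial granules, was the most abundant gene among all those at least 2-fold higher. It had 50777, 51890, 153449, 75810, 54802 and 53494 counts, 2.66-fold higher (log2 ratio 1.41, 1.39 to 1.42). On the FPKM scale, which divides by gene length, Myl7 stood at 0.840 in Control and 775 in Rh2-30, while Myl2 stood at 1596 and 1097. Bmp10 had a different order, with 0, 4, 534, 7644, 6 and 217 counts. It was at least 156-fold higher in Rh2-30 than in Control, reckoning the 0 of Control as 3 counts, yet its highest library was Rh2-20 + Dox.

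**Figure D1:**
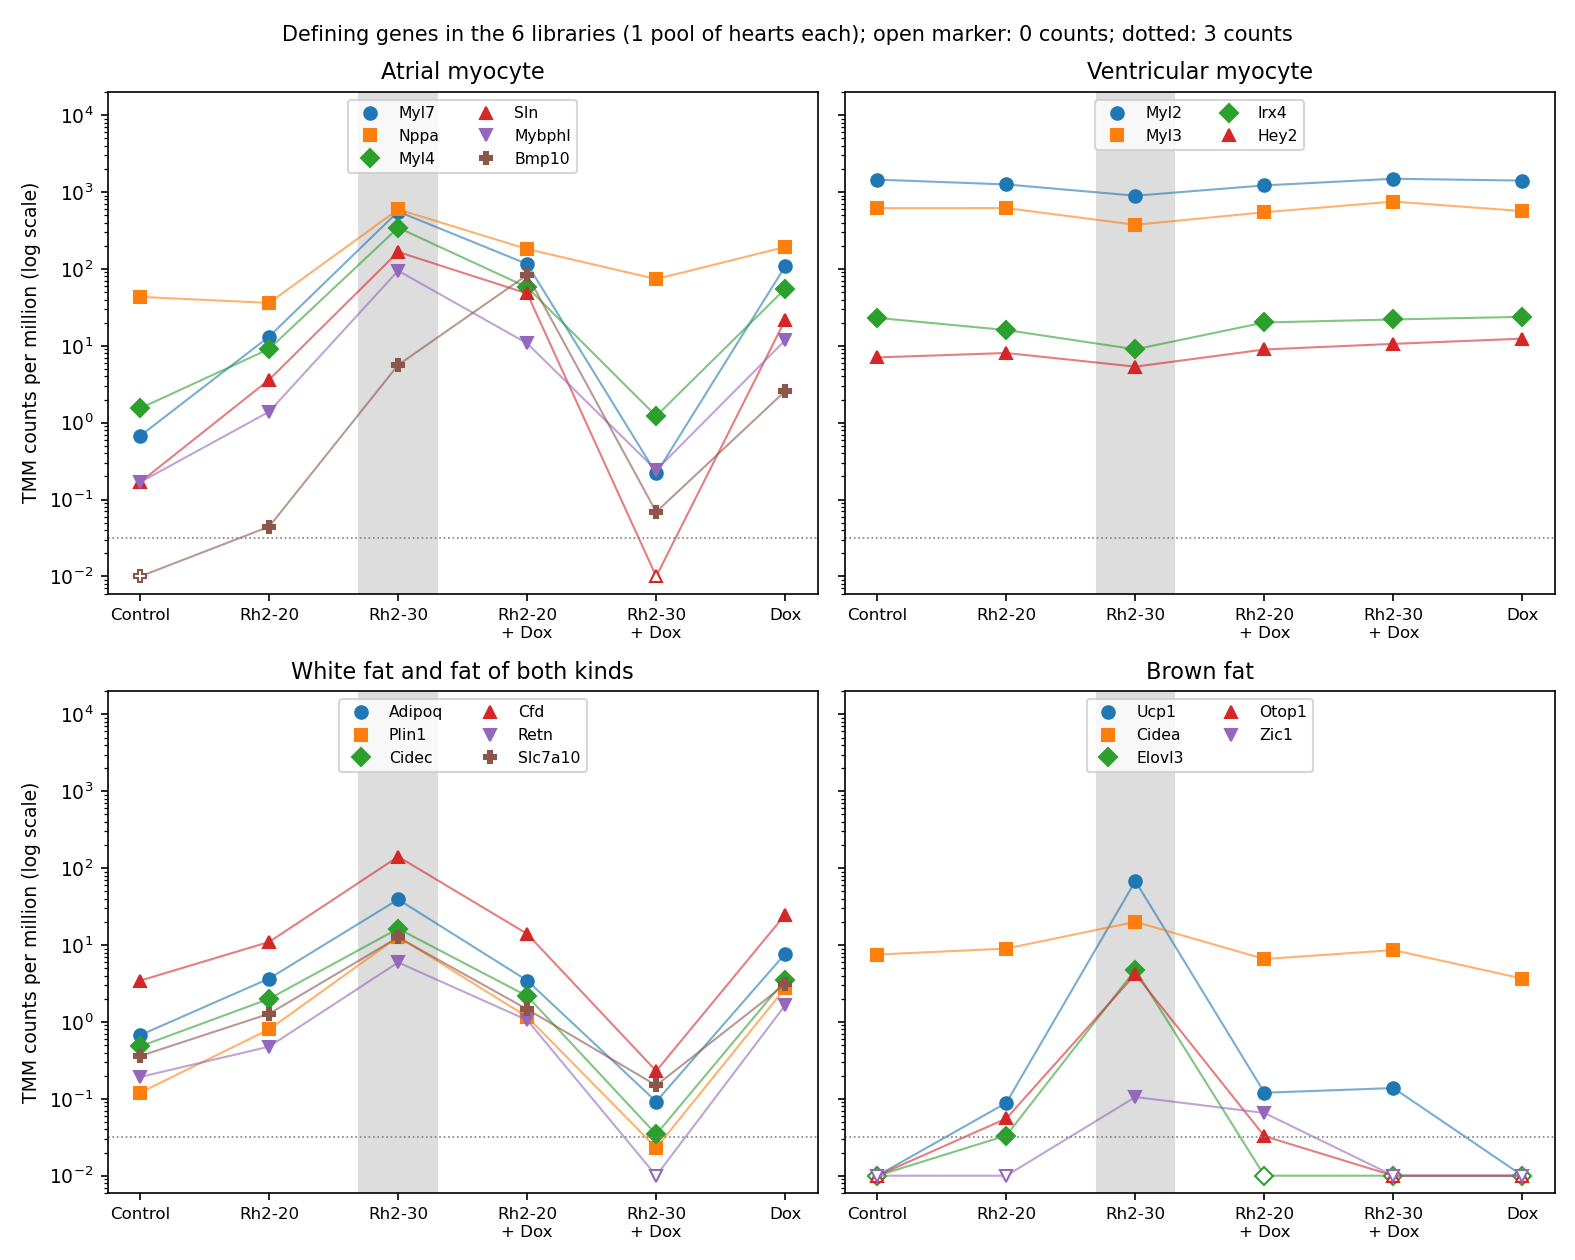
TMM-normalized CPM (counts scaled to a common library total, log axis) of the defining genes of the atrial, ventricular, fat and brown fat lists in the 6 libraries, 1 point per gene and library. Open markers stand for 0 counts, the dotted line for 3 counts, the grey band for Rh2-30, and lines only join the points of a gene. Ucp1 had 6442 counts in Rh2-30 and at most 12 in any other library, whereas Myl7 also had 10613 and 9134 in Rh2-20 + Dox and Dox.

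Further members of the atrial list differed by smaller factors. Dkk3, a secreted protein of the Dickkopf family, had 386 counts in Control and 5499 in Rh2-30 (12.5-fold), and Stard10, a lipid transfer protein, had 374 and 4729 (11.1-fold). Kcnj3, a subunit of the potassium channel opened by the vagus nerve, had 1644 and 9266 (log2 ratio 2.31), and its partner Kcnj5 had a log2 ratio of 1.21. Gja5, the connexin of atrial muscle and the conduction system, had 230 and 733 counts (log2 ratio 1.48). The T-box factor Tbx5 had 2559 and 6907 (log2 ratio 1.25). Genes of the sinus node and venous pole were at low counts. Isl1 had 0 and 36, and Shox2 had 19 and 89. The main pacemaker channel gene Hcn4 was the one member below 0, with 311 and 323 counts (log2 ratio -0.13, -0.36 to 0.10), and Kcna5, Cacna1d, Nr2f1 and Nr2f2 had log2 ratios of 0.18 to 0.86. Of the 18 higher members, 17 were highest in Rh2-30 among the 6 libraries and 12 were at least 2-fold above each of the other 5.

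Ventricular genes were modestly lower, all 11 below 0 and most within 2-fold. Myl2, the ventricular regulatory light chain, had 120804, 112970, 84963, 111771, 129279 and 118454 counts. Myl3, its essential partner, had 51389, 55698, 35562, 49973, 65343 and 47440. Both were lowest in Rh2-30. The log2 ratio to Control was -0.69 for Myl2 (-0.71 to -0.68) and -0.72 for Myl3 (-0.74 to -0.70), and the wider intervals were -1.37 to -0.02 and -1.39 to -0.04. Irx4, the homeobox factor that marks ventricular fate, had 1923, 1443, 853, 1843, 1912 and 2001 counts. It was lowest in Rh2-30 and was the list's only member at least 2-fold lower (2.57-fold, log2 ratio -1.36, wider interval -2.04 to -0.67). Phospholamban (Pln), the calcium pump inhibitor of the ventricle, had a log2 ratio of -0.60, the slow myosin heavy chain Myh7 -0.30 and the repressor Hey2 -0.40, and each of their wider intervals included 0. The sign depended on the scaling, and the median of all genes tested at 100 CPM or more was itself -0.16. With total counts 10 of the 11 were below 0, with scaling to the sarcomere genes 7 were, and the list's median was then -0.32 and -0.08. Irx4 was then still 2-fold lower with total counts but not with the sarcomere scaling.

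**Figure D2:**
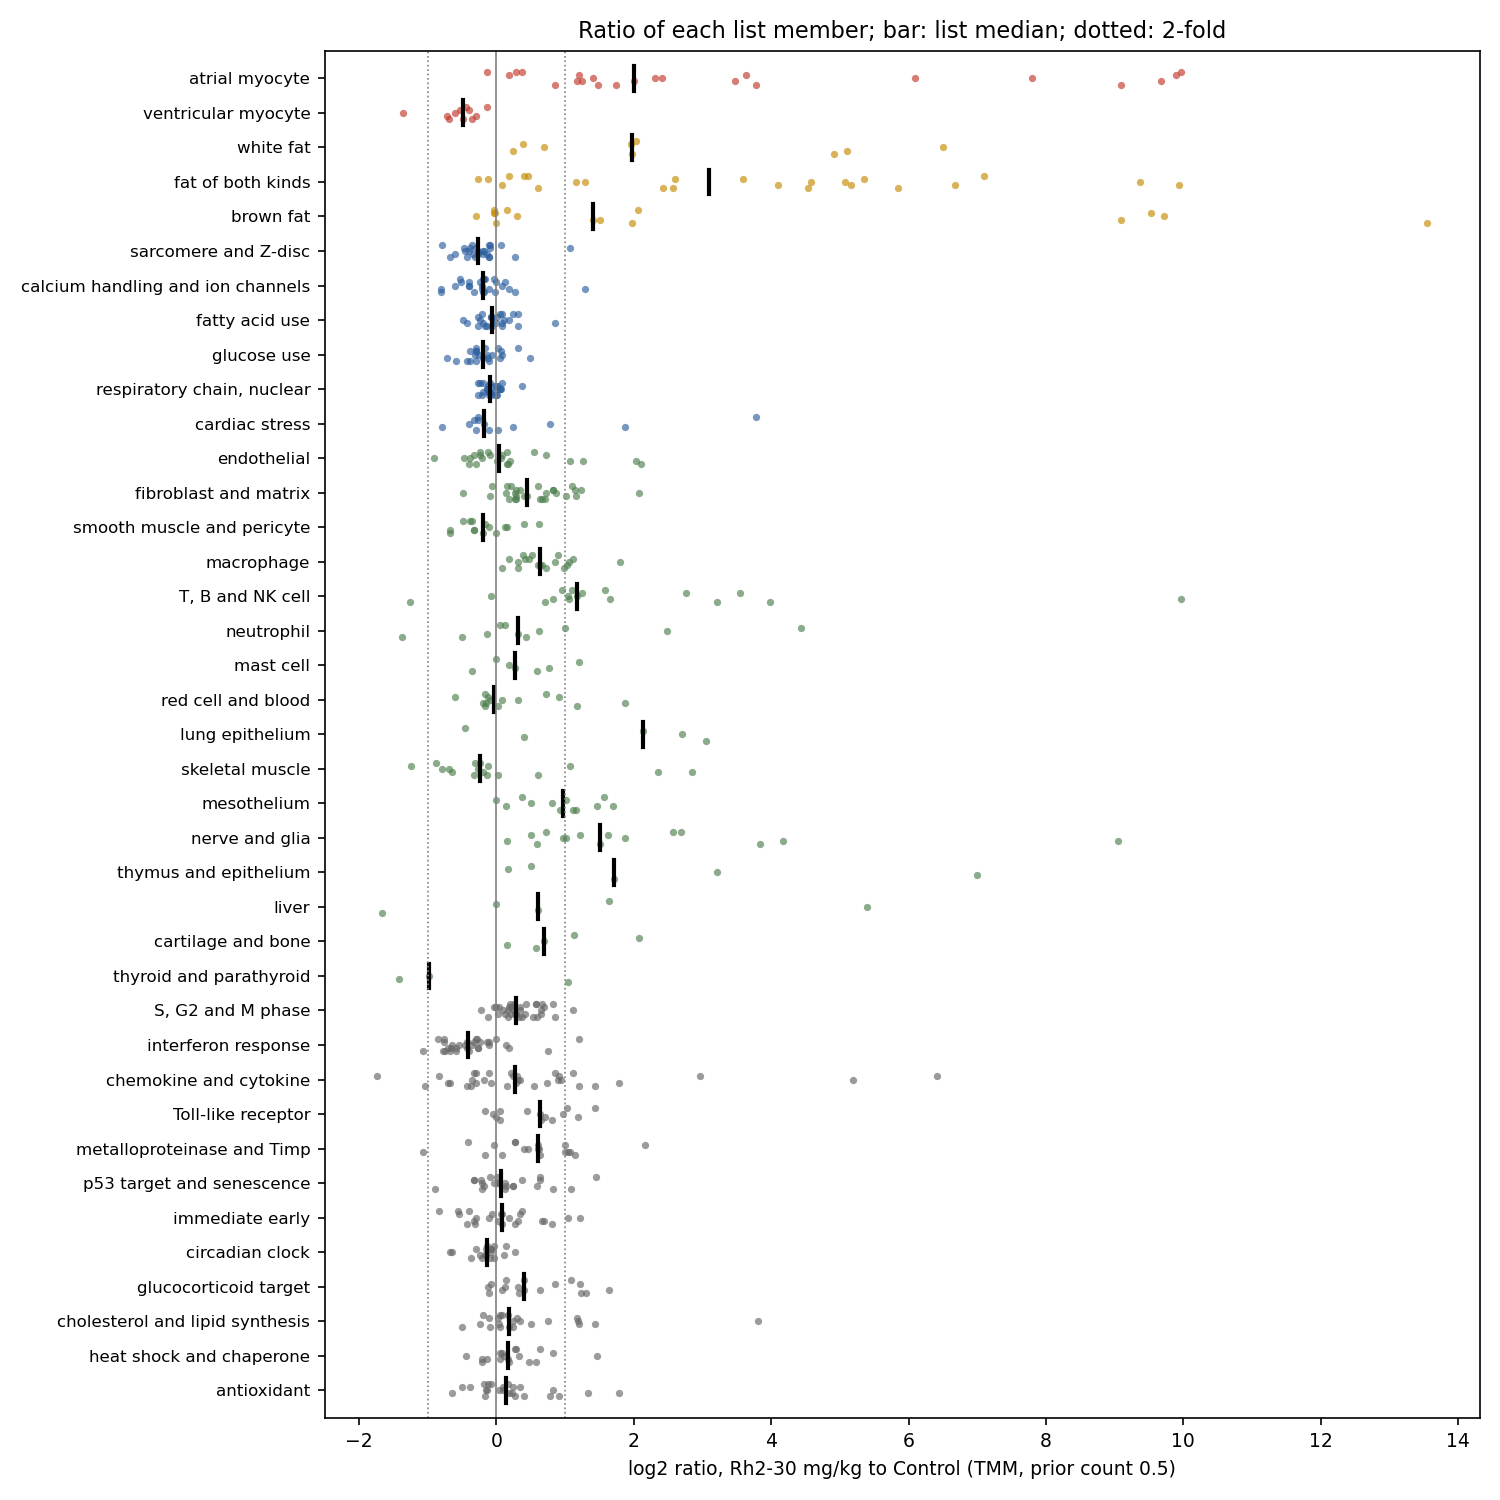
Log2 ratio of Rh2-30 to Control for each member of the 39 gene lists that passed the filter (points) with the list's median (bar), and dotted lines at 2-fold. The fat, atrial, nerve and epithelial lists reach far to the right, as do members of some other lists, such as Tigit (9.96), Cxcl13 (6.41) and Cyp2e1 (5.4). The lists of contraction, metabolism and clock genes stay near 0.

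Genes common to white and brown fat were the list with the highest median. Adipoq, which encodes the hormone adiponectin, had 56, 330, 3716, 317, 8 and 650 counts. Complement factor D (Cfd, adipsin), secreted by fat cells, had 287, 989, 13390, 1281, 20 and 2097, and Car3, the carbonic anhydrase of fat and slow muscle, had 333, 1585, 13564, 1766, 12 and 3291. All of these were highest in Rh2-30 and lowest in Rh2-30 + Dox, with Control next to lowest. Their ratios to Control were 57.8-fold (log2 ratio 5.85, 5.49 to 6.27), 40.9-fold (5.35, 5.19 to 5.53) and 35.7-fold (5.16). Plin1 had 10, 72, 1217, 107, 2 and 232 counts (log2 ratio 6.67), and Cidec, which fuses fat droplets, had 40, 180, 1550, 199, 3 and 297 (log2 ratio 5.07). The beta-3 adrenergic receptor of fat (Adrb3) had 0 counts in Control and 525 in Rh2-30, at least 154-fold higher, and Lgals12, a galectin of fat droplets, had 0 and 355. Of the 17 higher members 16 were at least 2-fold above each of the other 5 libraries.

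Members that heart muscle or its vessels also use did not differ in the same way. Fabp4, abundant in fat and in capillary endothelium, had 60838 counts in Control and 73735 in Rh2-30 (log2 ratio 0.09), and Plin4 had 89000 and 93533 (-0.12). The fat cell regulator Pparg had a log2 ratio of 0.18, the lipases Pnpla2 and Lipe 0.61 and 0.41, and the glycerol channel Aqp7 -0.26. The summed level of the 24 genes was 2268 CPM in Control and 4037 in Rh2-30, and 2272 to 2782 in the other 4 libraries.

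The enzymes that make fatty acids were among the most abundant genes that differed. Fasn, fatty acid synthase, had 3389, 4474, 66132, 7445, 2884 and 8069 counts (17.1-fold, log2 ratio 4.10, 4.05 to 4.15). Scd1, the stearoyl-CoA desaturase, had 1530, 2486, 40447, 4446, 1662 and 6023 (23.2-fold), and Elovl6, which lengthens palmitate, had 119, 98, 1907, 185, 65 and 173 (14.0-fold). Each was several fold above all other libraries in Rh2-30. Acly, which makes cytosolic acetyl-CoA, had a log2 ratio of 1.29, Acaca (acetyl-CoA carboxylase) 1.80, and the cytosolic phosphoenolpyruvate carboxykinase Pck1, used by fat to make glycerol, had 43 and 6800 counts (7.10). The cholesterol and lipid synthesis list, which holds Elovl6, differed less as a whole. Of its 23 genes that passed, 5 (21.7%, beside 8.48% of all genes tested) were higher and none was lower. Its median log2 ratio was 0.19. Sqle, like Elovl6, was at least 2-fold above each of the other 5 libraries in Rh2-30, and Hmgcs1 had a log2 ratio of 1.43. The fat markers Adipoq and Plin1 moved with the fatty acid enzymes, and their part in the ratios was not tested. Reads of Scd1 may be shared with its near-identical neighbours.

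White fat could be told from other fat only in part. Resistin (Retn), a hormone of mouse white fat, had 16, 43, 564, 97, 0 and 139 counts (30.1-fold, log2 ratio 4.91), and the amino acid carrier Slc7a10 had 30, 115, 1192, 134, 13 and 260 (34.4-fold, 5.10). Both were highest in Rh2-30, with Dox next and Rh2-30 + Dox lowest. Leptin (Lep), the defining hormone of large white depots, had 0 counts in both libraries, which allows up to 0.0360 CPM in Control and 0.0316 in Rh2-30. Hoxc8, Hoxc9 and Hoxc10, homeobox genes of fat of the lower body, were at 0 in all 6. Npr3, the clearance receptor for natriuretic peptides, had 2147 and 9985 counts (4.09-fold) and is also an endothelial gene. Agt, angiotensinogen, had 53 and 236 (log2 ratio 1.96).

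A few brown fat genes set Rh2-30 apart from every other library, while the list as a whole did not. Its genes summed to 787.8 CPM in Rh2-30 and 638.3 in Control, but to 911.7 in Rh2-30 + Dox and 847.4 in Dox. Its median log2 ratio of 1.41 was 0.30 with genes whose Control and Rh2-30 counts averaged 50 or more. Ucp1 had 0, 8, 6442, 11, 12 and 0 counts. Elovl3, the elongase of brown fat in the cold, had 0, 3, 453, 0, 0 and 0, Otop1, a proton channel of brown fat, had 0, 5, 397, 3, 0 and 0, and Kng2, a kininogen, had 0, 3, 291, 18, 0 and 0. All of them were near 0 in the other 5 libraries. Against Control Ucp1 was at least 1887-fold higher, Elovl3 at least 133-fold, Otop1 at least 116-fold and Kng2 at least 85.2-fold, each with the 0 of Control taken as 3 counts. Dio2, which activates thyroid hormone, had 127, 127, 610, 163, 20 and 140 counts (4.21-fold). Cidea, a droplet protein of brown fat that was also found in Control, had 627, 811, 1900, 603, 748 and 308 (2.66-fold). Zic1, a marker of classical brown fat, had 10 counts in Rh2-30, 6 in Rh2-20 + Dox and 0 elsewhere, and fell under the filter. Members shared with heart muscle differed by little: Ppargc1a had a log2 ratio of 0.30, Cox8b -0.03, Cox7a1 -0.02 and Prdm16 -0.30.

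**Figure D3:**
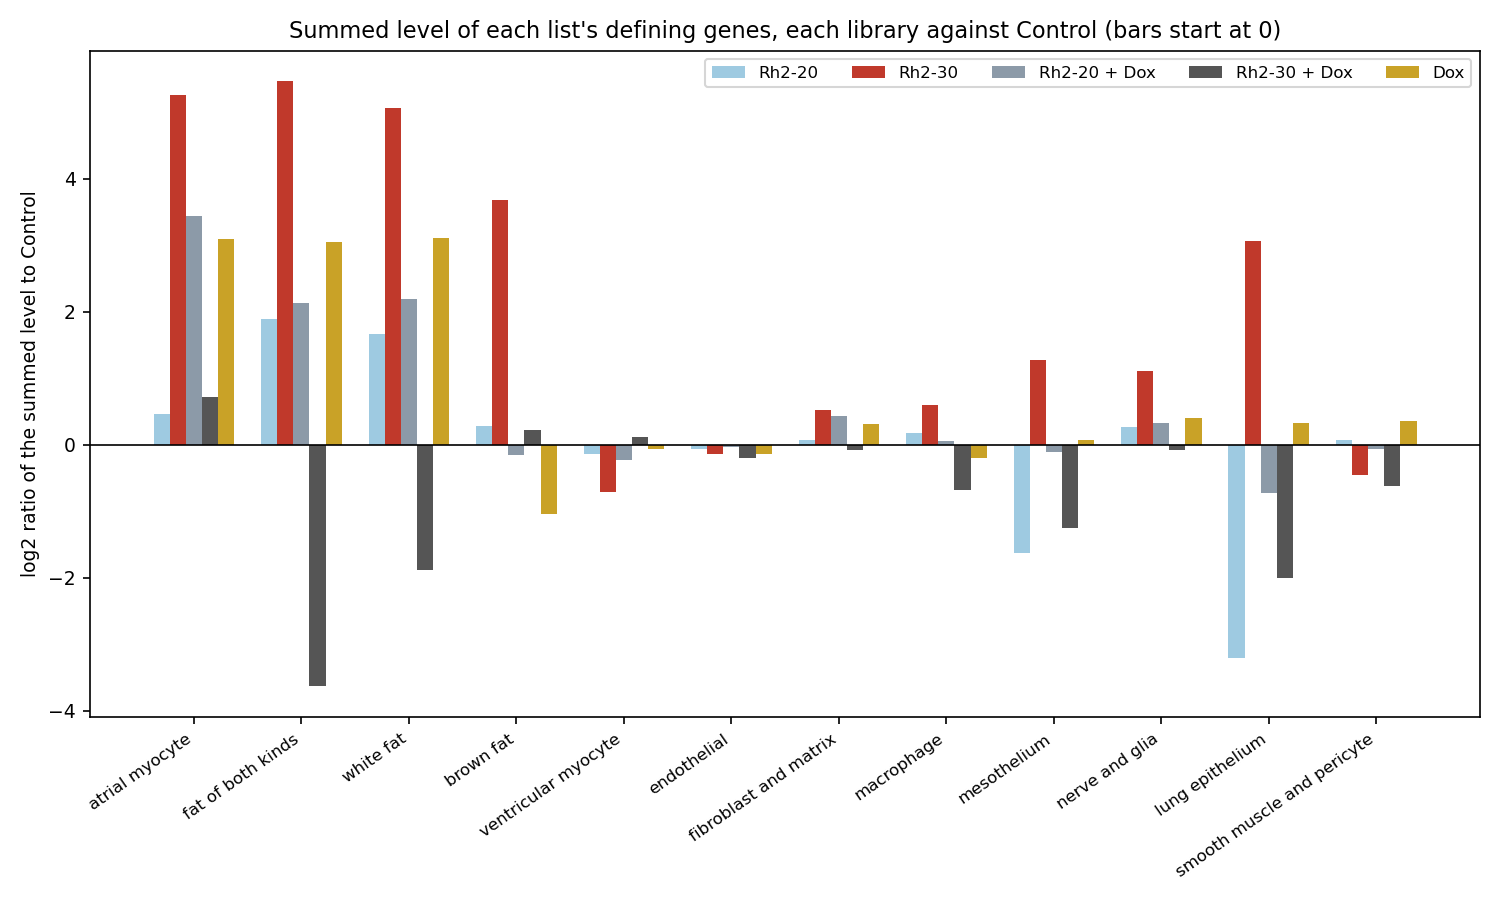
Log2 ratio to Control of the summed CPM of each list's defining genes, 1 bar for each of the other 5 libraries. The brown fat bar is tall for Rh2-30 alone, the lung epithelium bar is high for Rh2-30 and far below 0 for Rh2-20, and the bar of fat of both kinds is above 0 in every library but Rh2-30 + Dox.

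The lists of chambers and depots thus had different orders over the libraries. The summed level of the 6 defining atrial genes was 45.8 CPM in Control, 63.4 in Rh2-20, 1763 in Rh2-30, 497 in Rh2-20 + Dox, 75.6 in Rh2-30 + Dox and 393 in Dox. Nppa gave nearly all of that sum in Control and in Rh2-30 + Dox, so the low end of the order mostly followed Nppa. For the 4 defining genes of fat of both kinds it was 4.72, 17.4, 209.6, 20.8, 0.380 and 39.0. For the 5 defining brown fat genes it was 7.53, 9.18, 97.0, 6.80, 8.74 and 3.67, of which Cidea gave nearly all outside Rh2-30. The 4 defining ventricular genes summed to 2097, 1897, 1285, 1794, 2272 and 2010, lowest in Rh2-30. The medians depended on the reference. With Rh2-20 in the place of Control the median log2 ratio of fat of both kinds was 2.73, of white fat 0.73 and of brown fat 0.68.

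Genes of contraction and fuel use differed little. Of the 26 sarcomere and Z-disc genes 25 were within 2-fold and 23 were below 0, with a median of -0.27. Among all genes tested at 100 CPM or more the median was -0.16, and under 1 CPM it was 0.31. Ttn had a log2 ratio of -0.45 (-0.45 to -0.44, wider -1.12 to 0.23), the main myosin heavy chain of the mouse heart Myh6 -0.31, and cardiac troponin T (Tnnt2) -0.60. Mybpc3, myosin-binding protein C of the ventricle and atrium, had -0.68, and the skeletal actin gene Acta1 had -0.79. Among the 26 genes of calcium handling and ion channels 1 was higher, Cacna1h (315 and 875 counts), a T-type calcium channel. The L-type channel Cacna1c had a log2 ratio of -0.80 and the ryanodine receptor Ryr2 -0.32. None of the 26 fatty acid, 23 glucose or 28 nuclear respiratory chain genes was 2-fold different, and their medians were -0.06, -0.19 and -0.09. The signs of these medians depended on the scaling, since total counts moved the fatty acid median to 0.11 and scaling to the sarcomere genes moved it to 0.35 and the sarcomere median to 0.14.

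Markers of further cell types also differed, at lower levels. Beside their counts, 8.48% of all genes tested were higher and 1.63% lower, and 22.7% and 6.01% of those under 1 CPM. Of 15 nerve and glia genes that passed, 10 were higher and none was lower, with a median of 1.51. The neuronal tubulin Tubb3 had 53, 81, 874, 46, 19 and 24 counts (14.4-fold), and the synaptic protein Snap25 had 283 in Rh2-30 and 0 in all others. Both were far higher in Rh2-30 than elsewhere. Chat, which makes acetylcholine, had 49 counts and tyrosine hydroxylase (Th) 25 in Rh2-30, against 0 in Control.

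Of 17 genes of T, B and NK cells that passed 12 were higher, most of the B cell genes among them, and 1 was lower. Cd79a, part of the B cell receptor, had 21, 59, 165, 54, 24 and 30 counts, and Ms4a1 (CD20) had 16, 34, 174, 25, 5 and 9. Both were highest in Rh2-30, by 6.77-fold and 9.31-fold over Control. Cd3e, of the T cell receptor complex, was the lower gene, with 80 and 38 counts (log2 ratio -1.25, -1.86 to -0.69). Other T cell genes did not follow it, such as Cd2 (27 and 74 counts, 1.25) and Cd4 (16 and 36, 0.96). Of the 17 genes 15 were above 0 and 2 below. Macrophage genes were all 19 above 0 with a median of 0.64, but only 4 were 2-fold higher, among them C1qc (741 and 1818 counts). The endothelial genes Cdh5 and Pecam1 had log2 ratios of 0.01 and 0.16, whereas Plvap, of fenestrated vessels, had 501 and 2465 counts (4.32-fold) and Vwf, the von Willebrand factor, had 21568 and 51646 (log2 ratio 1.07).

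Mesothelium, the lining of heart and chest, had 6 of 12 genes higher and none below -1. Upk3b had 271, 102, 849, 285, 118 and 306 counts and Msln, mesothelin, had 341, 112, 843, 337, 150 and 342. Both were highest in Rh2-30 and lowest in Rh2-20. Among genes of airway epithelium, the club cell secretoglobin Scgb1a1 had 77, 9, 730, 51, 16 and 98 counts (8.29-fold), and Scgb3a2 had 40, 19, 300, 31, 10 and 21. Of the 5 lung epithelium genes that passed 3 were higher, with Napsa (17 and 87 counts) among them. Hopx of that list had a log2 ratio of -0.45. Surfactant protein C (Sftpc) of the alveolus was at 0 in all 6 libraries, and Sftpb had 3 counts in Rh2-30. The basal keratin Krt5 had 68 counts in Rh2-30 and 0 elsewhere. The part of nerve, mesothelial and airway genes in the atrial and fat differences was not tested. They were highest in the same library.

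Matrix and immune genes were read beside these markers. Of 29 fibroblast and matrix genes 6 (20.7%, beside 8.48% of all genes tested) were higher and 26 were above 0, with a median of 0.45. Col3a1, fibrillar collagen, had 36000, 39859, 87731, 34068, 12509 and 22452 counts (2.14-fold), Fn1, fibronectin, had 17430 and 46949 (2.37-fold), and Col1a1 had 13047 and 27072 (1.82-fold), while the fibroblast receptor Pdgfra had a log2 ratio of 0.19. Interferon response genes leaned lower. Of 32, 27 were below 0 and the median was -0.41, but only Mx2 was 2-fold lower (3031 and 1641 counts), and with Cxcl9 1 was higher. Mx2 had 1416 to 2149 counts in the other 4, so Control was its highest library. The lean was not particular to Rh2-30, since the interferon median of Rh2-20 to Control was -0.43. The list summed to 1440 CPM in Control, 1037 in Rh2-20 and 1020 in Rh2-30. With Dox it summed to 1075 (Rh2-20 + Dox), 862.5 (Rh2-30 + Dox) and 2986 (Dox alone). With scaling to the sarcomere genes the interferon median was 0.00. In the chemokine and cytokine list 7 of 34 (20.6%) were higher and 2 (5.88%) lower. All genes tested had 8.48% and 1.63%, and those under 1 CPM had 22.7% and 6.01%. The B cell attractant Cxcl13 had 2, 4, 238, 160, 22 and 50 counts, with a ratio of 84.8 and a counting interval on the log2 scale of 4.84 to 9.76. Eotaxin (Ccl11) had 38 and 341 counts (7.80-fold). Il1b had 292, 238, 100, 396, 173 and 278 (log2 ratio -1.73) and Tnf 91 and 50 (-1.04).

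Ranked with a prior count of 0.5, the 10 genes of the highest ratio among those with at least 100 counts were all at 0 in Control, where the prior sets the ratio, so the rank of all but Ucp1 against Sln or Myl7 was not established. Besides Ucp1 and Bmp10 they were Slc27a2 (1105 counts in Rh2-30), which activates very long fatty acids, Sphkap (755), an anchor protein of kinase A, the plasma protein gene Orm1 (749), the lipid carrier Mfsd2a (641), Uts2b (639), a urotensin, Adtrp (579), Gys2 (537), the liver-type glycogen synthase, and Tigit (533). Slc27a2 and Mfsd2a had at most 14 counts in any other library. Tigit, a receptor of T and NK cells, had 258 to 533 counts in the other 5 libraries, so that Control alone stood apart.

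Genes lower in Rh2-30 were fewer and made no group among the lists. The most abundant was Prune2, with 69640, 59084, 39095, 66322, 82384 and 80554 counts (2.03-fold lower, log2 ratio -1.02, wider interval -1.69 to -0.34), lowest in Rh2-30. Ush1c, the scaffold harmonin, had 12301 and 6862 (-1.03) and Gpt, alanine transaminase, 5604 and 3117 (-1.03). Trim17, a ubiquitin ligase, had 539, 669, 12, 555, 606 and 693 counts. It was 49.0-fold lower in Rh2-30 than in Control and was low in that library alone. Madd, a regulator of Rab proteins, had 16795, 4364, 4635, 4129, 3950 and 4505, and Mnd1, a meiotic recombination gene, had 1815, 192, 436, 270, 160 and 1968. For Madd it was Control that differed from the 5 others, and for Mnd1 Control was matched by Dox. Eef1akmt4-ece2, a readthrough of neighbouring genes, had 164 counts in Control and 0 elsewhere.

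The place of both libraries among the 6 was counted for the genes at least 2-fold different. These genes were chosen for a difference between Rh2-30 and Control, so high shares at the ends follow in part from the choice. Of the 1555 higher genes 1144 (73.6%) were highest in Rh2-30 among the 6 libraries and 741 (47.7%) were lowest in Control, where all genes tested had 26.1% and 17.2%. At least 2-fold above each of the other 5 in Rh2-30 were 495 (31.8%), and 169 (10.9%) were at least 2-fold below each of the other 5 in Control. Of the 299 lower genes 170 (56.9%) were lowest in Rh2-30 and 161 (53.8%) were highest in Control, where all genes tested had 21.3% and 17.1%. Level mattered as well. Of 4008 genes with a mean under 1 CPM 22.7% were higher and 6.01% lower, and of 1951 genes at 100 CPM or more 1.03% were higher and 0.205% lower. Their median log2 ratios were 0.31 and -0.16, so signs within a list may follow level in part. Protein-coding genes were higher in 8.0% of 15203 cases and long non-coding RNAs in 17.2% of 944.

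**Figure D4:**
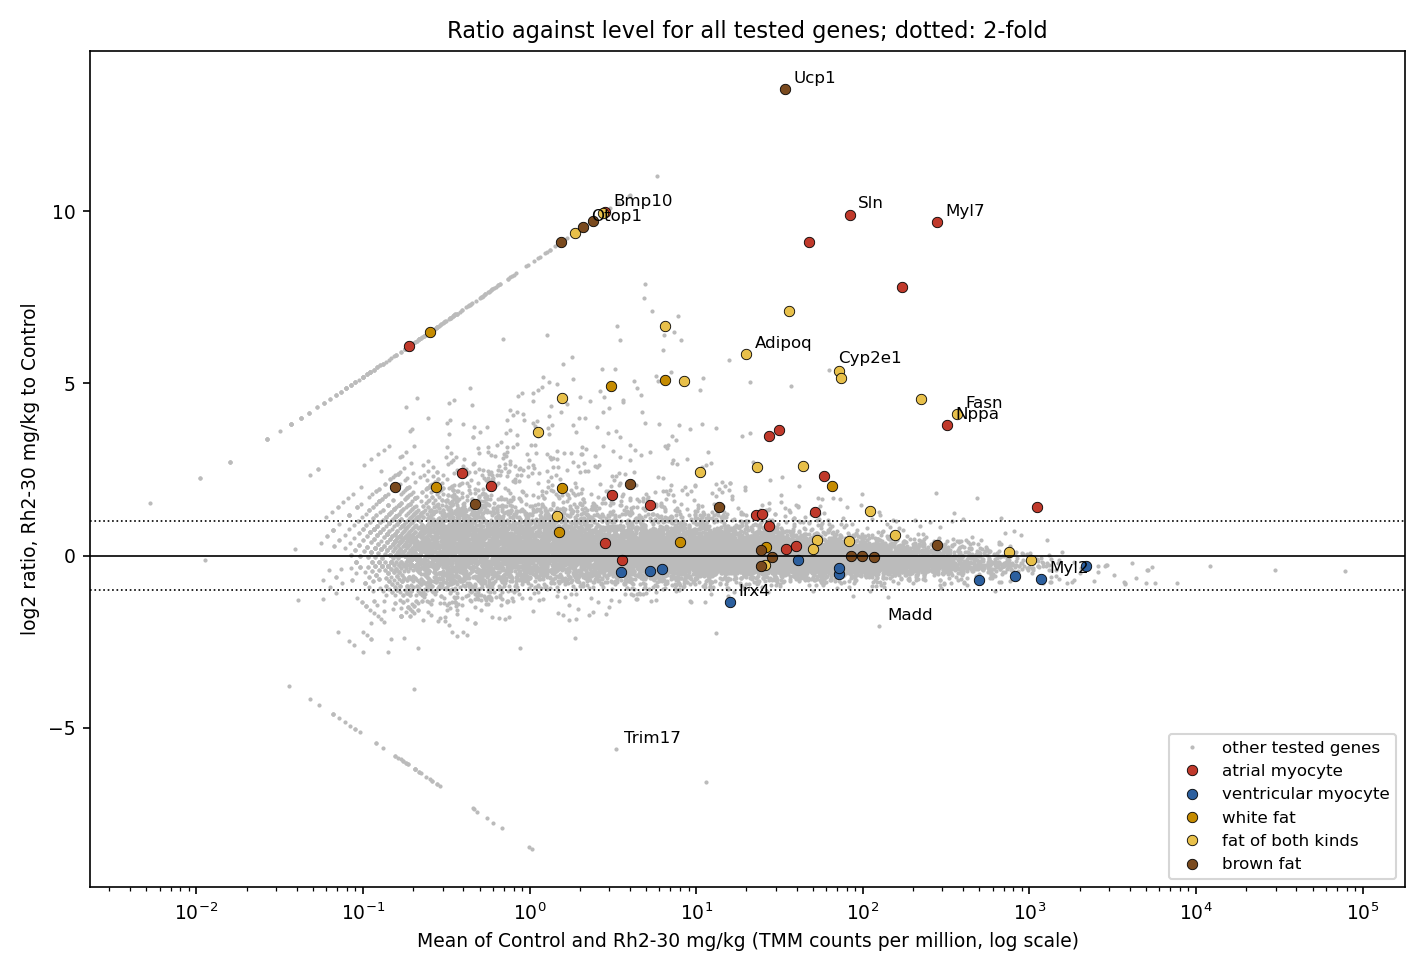
Log2 ratio of Rh2-30 to Control against the mean level of both libraries (TMM-normalized CPM, log axis) for the 18328 genes tested, with the chamber and fat lists in colour and dotted lines at 2-fold. The straight bands above and below are genes with 0 counts in 1 of the libraries. Myl7, Sln, Nppa, Fasn and Ucp1 lie far above the cloud at levels where few genes differ, and ventricular genes lie just below 0.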

How the data were processed

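RNA of hearts, pooled from 5 mice per library, had been captured with the SureSelectXT RNA Direct kit and sequenced, 1 library for each of 6 conditions. Per the submitters' processing notes and the study's methods the authors used bcl2fastq 2.20.0, Trimmomatic, HISAT2 2.1.0 and StringTie 2.1.3b on mm10. The deposited read counts were whole numbers per gene without normalization, the deposited FPKM values were scaled by the authors to gene length and library size and served as alternatives and for levels between genes, and the deposited TPM values were not used here. Reads of near-identical genes were divided by the authors' tools, and use of strand was not given in the sources used here.

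Library totals were 86164411 to 90621002 counts. Genes averaging 10 counts or more across libraries (18328) were kept and scaled by TMM in edgeR 4.0.16 (R 4.3.3). Log2 ratios of Rh2-30 to Control used a prior count of 0.5. Exact 95% intervals treated the pair of counts as binomial given their sum, and wider ones added a common dispersion of 0.0285, estimated from the 6 libraries as 1 group with the treatments in it. A count of 0 was taken as 3 counts for a fold. With 1 library a side no result rests on a test, and edgeR's exact test with that dispersion (raw p cut-off of 0.05) served only as an alternative. Steps were tested on simulated data.

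Named were the 10 genes with the highest and the 10 with the lowest ratio among genes with at least 100 counts in the higher library and an own symbol, the 10 with the most counts among those at least 2-fold higher and lower, and from 39 lists the defining genes, the most abundant member and up to 4 members with the largest ratio at 50 counts or more. Other genes were named after their values were seen. The members and lists were chosen with earlier results of these data known. Of 751 listed genes 747 were in the table. Promoter windows were read from RefSeq on GRCm38.p6, the same major assembly as mm10. Python 3.11.15 with matplotlib 3.10.9 drew the plots. Some genes that this rule names are not reported here.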

Additional observations from a re-analysis of the deposited data

How the results depend on the processing

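The counts of 1555 higher and 299 lower genes stayed within 1.5 times with DESeq2 1.42.0 size factors, total counts, a prior count of 2, Rh2-20 as the reference, a counting interval that leaves out 0 and an exact test with the common dispersion. They were 4312 and 1531 without the filter on low counts. With 50 or more as the mean of the Control and Rh2-30 counts they were 844 and 89, and with FPKM plus 1 they were 334 and 19. With FPKM plus 0.1 there were 97 lower genes. Of the list medians, with that mean of 50 counts or more the atrial one was 1.75 and the brown fat one 0.30. With FPKM plus 1 the atrial, ventricular, white fat, both-kinds and brown fat medians were 1.23, -0.19, 0.62, 1.5 and 0.28, and with FPKM plus 0.1 the atrial, ventricular, both-kinds and brown fat ones were 1.35, -0.32, 2.70 and 0.46. An offset draws low genes toward 0 by construction. With total counts the ventricular, both-kinds and brown fat medians were -0.32, 3.26 and 1.58, and with Rh2-20 as the reference the white fat, both-kinds and brown fat ones were 0.73, 2.73 and 0.68. The share of higher genes among those 2-fold different was 73.8% without the filter and 94.6% with FPKM plus 1. These alternatives reversed the sign of none of the 5 chamber and fat medians, while total counts turned those of some lists near 0, such as fatty acid use (-0.06 to 0.11) and the circadian clock (-0.13 to 0.04).

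Chosen after seeing the data, scaling to the summed sarcomere genes gave 2917 higher and 141 lower genes, medians of 2.42 (atrial), -0.08 (ventricular), 3.5 (both kinds) and 1.82 (brown fat), 2431 higher genes with Rh2-30 highest of the 6 and 87 lower genes with it lowest. That scaling sets the sarcomere genes level by construction. Leaving out all genes of the chamber, fat and other cell lists, also added later, left 1449 higher and 293 lower genes. Among 231 named genes no ratio changed sign past 2-fold, and 26 moved beyond their counting interval with DESeq2 size factors and 192 with FPKM plus 1. No paired analysis was possible because the compared conditions share 1 replicate number, with 1 library each. Depth did not limit genes of many counts. The number of pools did, since no value shows how much hearts of 1 condition differ.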

Other observations

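Genes outside the lists, chosen after their values were seen, held some of the widest differences at high counts. Ryr3, a ryanodine receptor, had 196, 420, 6801, 2909, 249 and 934 counts in Control, Rh2-20, Rh2-30, then Rh2-20 + Dox, Rh2-30 + Dox and Dox alone (log2 ratio of Rh2-30 to Control 4.93). Fgf12, which tunes sodium channels, had 50, 85, 2933, 511, 103 and 322, Hamp, which encodes the iron hormone hepcidin, had 13, 42, 1388, 783, 7 and 88, and the kinase gene Sbk2 had 112, 137, 1617, 356, 157 and 315. These 4 genes shared with Myl7 a highest value in Rh2-30 and a second highest in Rh2-20 + Dox. Adamts8, a secreted protease, had 103, 136, 3896, 138, 26 and 253 counts, high in Rh2-30 alone. The neighbouring F-box genes Fbxw15, Fbxw18, Fbxw24 and Fbxw25 on chromosome 9, members of 1 family whose reads may have been divided among them, had 652, 2016, 1017 and 1064 counts in Rh2-30 and 7, 49, 6 and 25 in Control.

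Cyp2e1, listed as a liver gene and also found in fat, had 242, 2003, 11659, 2305, 57 and 4191 counts, while the liver secretion gene Alb had 25 in Control and 4 in Rh2-30. Of 5 liver list genes that passed 2 were higher and 1 was lower. Genes of secreted liver proteins outside the list were higher (Ahsg 572 and 3651, Mup9 24 and 807) or near level (Hpx 50 and 44). Complement C3 had 19351, 32989, 69952, 42499, 17105 and 24215 counts. Clock genes differed little, with none of 19 at 2-fold and a median of -0.13. Genes of S, G2 and M phase leaned higher, with 31 of 35 above 0 and a median of 0.29, but only 1 was 2-fold higher (Ccnb1, 140 and 345 counts). Of 17 glucocorticoid targets 5 (29.4%, beside 8.48% of all genes tested) were higher. Among them Fkbp5 had 1730, 3171, 4889, 5981, 9770 and 4333 counts, and its lowest value was in Control. Hsph1, a chaperone, had 4325 and 13555 counts (log2 ratio 1.46) while Hspa8 had a log2 ratio of 0.09. Of 24 antioxidant genes 2 (8.33%) were higher, close to the 8.48% of all genes, and the plasma glutathione peroxidase Gpx3 had 3704 and 14597 counts. F5, coagulation factor V, had 546, 659, 2344, 10927, 456 and 5438 counts. Like Tigit, Serpina3m had 0 counts in Control and 143 to 453 in the other 5 libraries.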
